A study of Rattus norvegicus with 15 samples.

Results

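The collagen genes of the rat were followed across 5 groups of femurs in a study of ovary removal and 2 plant extracts. They were chosen by name alone, as every gene whose symbol reads Col, a number, a and a number, which gave 44 of the 30454 genes in the files. By the type of assembly they form, 8 were placed as fibrillar, 9 as basement membrane and 6 as type VI genes. Another 6 were fibril-associated collagens with interrupted triple helices (FACIT). A class of 7 cartilage genes was set by tissue, and 8 were others. The cartilage fibril chains Col2a1, Col11a1 and Col11a2 were therefore not counted as fibrillar, nor the Col9 chains as FACIT. Of these 44 genes, 35 had a mean of at least 1 FPKM (fragments per kilobase of transcript, scaled to library size) over the 15 libraries and entered the tests. The 9 below that level were Col19a1, Col4a6, Col6a6, Col9a1, Col7a1, Col26a1, Col23a1, Col25a1 and Col6a4. Col4a3 and Col28a1 passed only because of their level in Sham, so a lower value in the other groups was built into their passing.

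Collagens are secreted proteins whose chains wind into a triple helix. Type I collagen, made of the Col1a1 and Col1a2 chains, is the main protein of bone, laid down by osteoblasts and then mineralised, while type II and type X collagen belong to cartilage and to the enlarged cells of the growth plate. Type IV collagen forms the sheets of basement membranes under endothelium and around muscle and fat cells, type VI forms beaded filaments around many cells, and the FACIT collagens sit on the surface of fibrils.

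The rats were female, of strain SD, and 8 weeks old at the start, with 7 days of adaptation before surgery. Sham rats had fat removed and kept their ovaries, and OVX rats had both ovaries removed. Both of these groups were given saline. The rats of J, P and PJ had also lost both ovaries. Daily doses were 1.6 g per kg of an extract of walnut, Juglans regia, in J, 2.4 of Psoralea corylifolia in P and 4.0 of both together in PJ. Treatment lasted 8 weeks after 6 weeks of recovery, and femur RNA was sequenced in 3 libraries for each group. The labels do not say that each library came from its own rat, nor which part of the femur or its marrow was taken, and p-values here measure only how far the libraries of a group differ, which may be technical. The comparison of OVX with Sham asks what changed after ovary removal, and the comparisons of J, P and PJ with OVX ask what each treatment changed on that background. These last 3 comparisons share the OVX libraries.

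Library totals inferred from the FPKM values in units of 1000000 reads were 34.4 to 61.0, with 19435 to 20845 genes detected. Across the 14416 tested genes, which are not independent of each other, Sham 3, P 2, P 3 and PJ 3 each resembled a library of another group more than any of their own, with Pearson correlations of log2(FPKM + 1) of 0.946 against 0.939, 0.903 against 0.851, 0.967 against 0.962 and 0.944 against 0.899. Cell type markers moved with the groups. The summed FPKM of 10 chondrocyte markers was 1852 to 4322 in Sham and 2.20 to 3.40 in OVX, with Acan, the cartilage proteoglycan, at 0.04, 0.03 and 0 in OVX. Chad alone had 2187, 927 and 1267 FPKM in Sham 1, 2 and 3. Matn1, Cnmd and Matn3 were low in Sham too, at no more than 0.596 FPKM, and Matn3 overlapped between Sham and OVX. For 6 erythroid markers the summed FPKM was 21.6 to 95.1 in Sham and 3289 to 4458 in OVX. In bulk RNA of this kind, fewer cells of a type in the sample and less RNA per cell cannot be told apart. Nor can a change within a tissue be told from a different part of the femur in the sample, as the labels do not name the part.

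Collagen transcripts as a whole were lowest in OVX. The 44 genes together made up 0.724, 0.571 and 0.553% of all FPKM in Sham 1, 2 and 3, and 0.0894, 0.0498 and 0.0529% in OVX. The share was 0.324, 0.276 and 0.170% in J, 0.965, 0.336 and 0.600% in P and 0.627, 0.536 and 0.153% in PJ. Every OVX library was below every library of the other 4 groups, and the Sham, P and PJ ranges overlapped. These shares are given as a description, without a test.

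**Figure D1:**
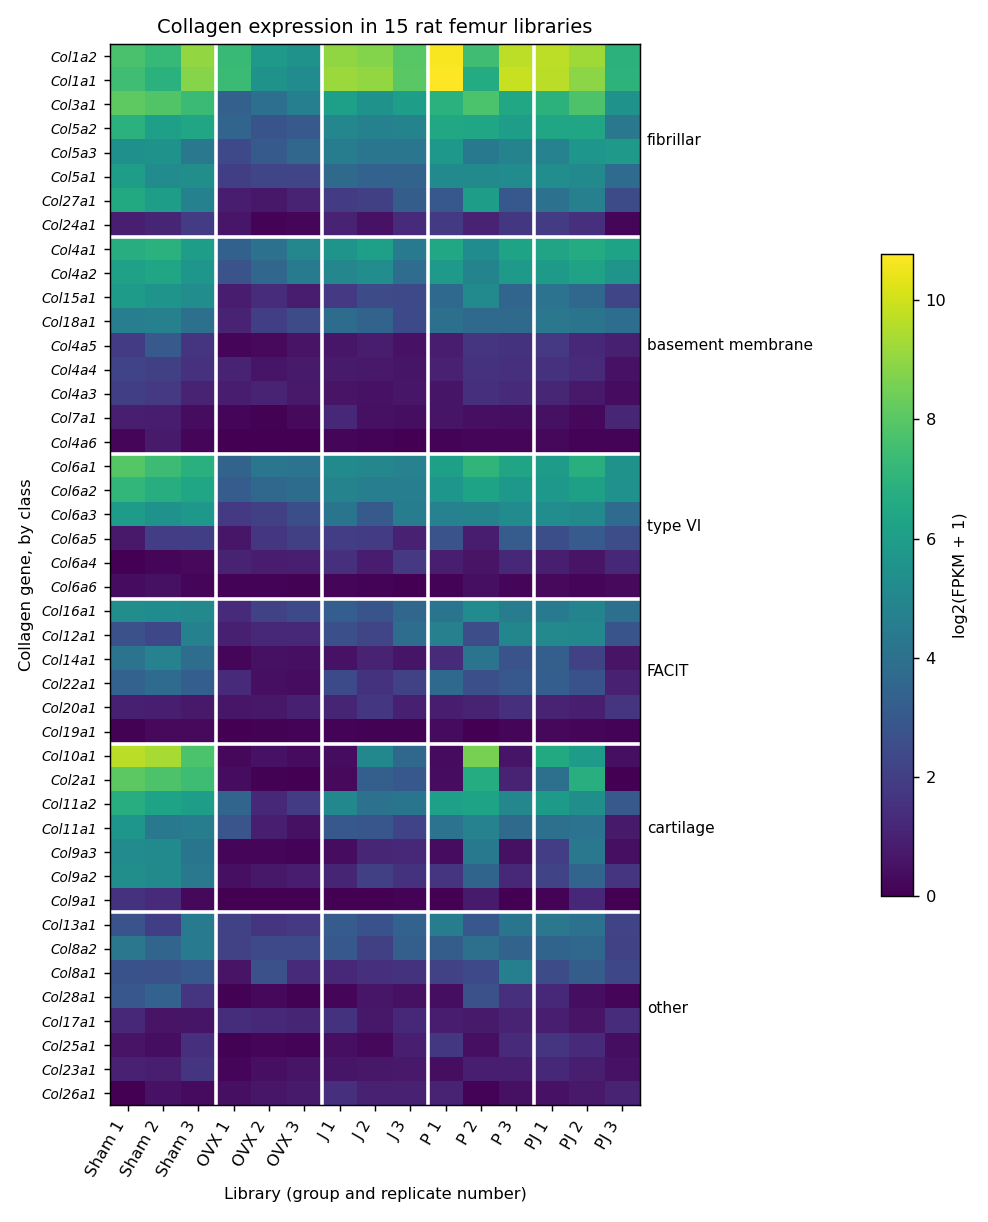
Level of each of the 44 collagen genes (vertical axis, by class and by mean level) in each of the 15 libraries (horizontal axis), as log2(FPKM + 1) in colour. The OVX columns are the darkest in most classes. The cartilage genes other than Col9a1, which is dim throughout, are bright in all 3 Sham libraries, in P 2 and in PJ 2.

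Composition differed as well as amount. The cartilage class held 41.9, 42.5 and 21.3% of the collagen FPKM in Sham and 4.23, 1.55 and 1.67% in OVX. Type I collagen, the sum of Col1a1 and Col1a2, held 12.4, 10.9 and 41.1% in Sham and 76.0, 45.2 and 32.8% in OVX. In the treated groups type I held 73.1, 71.6 and 59.6% in J, 81.0, 15.6 and 71.1% in P and 64.5, 47.7 and 35.9% in PJ. P 2 was unlike P 1 and P 3 and nearer to Sham 1 and Sham 2, with 34.9% cartilage collagen and 15.6% type I. Sham 3 had more type I and less cartilage collagen than the other two Sham libraries. Osteoblast markers differed in the same libraries: the mean log2(FPKM + 1) of 8 of them was 7.12 in Sham 3 against 4.25 and 3.56 in Sham 1 and 2, and 4.92 in P 2 against 7.18 and 7.33 in P 1 and P 3. Their part in the result was not tested.

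**Figure D2:**
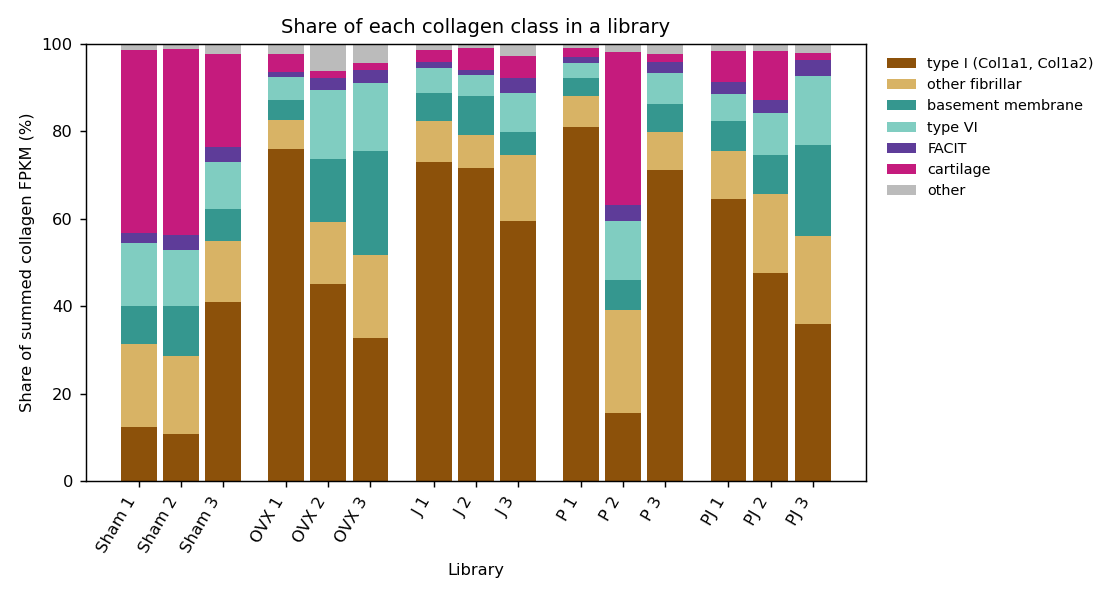
Share of the summed collagen FPKM (vertical axis, percent) held by type I collagen, the other fibrillar genes and the other classes in each of the 15 libraries (horizontal axis). Cartilage collagens fill 41.9%, 42.5% and 21.3% of the Sham bars and 34.9% of the P 2 bar, and at most 11.1% of any other bar.

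After ovary removal members of every collagen class fell. In OVX against Sham, 27 of the 35 tested collagens were lower, 0 were higher and 8 did not pass (limma, Benjamini-Hochberg adjusted p under 0.05 over all tested genes), where 28.9% of the 14416 tested genes were lower and 25.3% higher. The 27 were 5 of 8 fibrillar, 7 of 7 tested basement membrane, 3 of 4 tested type VI, 4 of 5 tested FACIT, 6 of 6 tested cartilage genes and 2 of 5 tested others. For Col4a3 and Col28a1 the filter built in a low level in OVX, and without these members 25 of 33 tested collagens were lower, 6 of 6 in basement membranes and 1 of 4 among the others. The median log2 fold change was -2.60 over the tested collagens, -2.78 without these members and -0.04 over all tested genes. By class it was -4.49 for cartilage, -3.33 for type VI, -2.78 for FACIT, -2.71 for fibrillar, -2.44 for basement membrane and -1.25 for the others. All log2 fold changes here are on the log2(FPKM + 1) scale, which understates the change of genes with low values.

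Under J 7 of the 35 tested collagens rose against OVX and 0 fell, where 3.27% of all tested genes rose and 2.79% fell. The 7 were Col3a1, Col5a1, Col5a2, Col6a2, Col6a3, Col16a1 and Col18a1, and none was a cartilage gene. The median log2 fold change was 1.24 over the tested collagens and 0.11 over all tested genes. This count was unstable. Without OVX 1, OVX 2 or J 1 it was 0 each time, and it was 1 without J 3 and 3 without J 2. It was also 4 without Sham 1, Sham 2, P 1, P 3 or PJ 1, each left out singly, all groups sharing 1 estimate of the spread in the fit. Without Sham 3, P 2 and PJ 3 together it was 17. With an unadjusted p under 0.05 there were 17 of 35, against 25% of all tested genes.

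Under P 24 of the 35 tested collagens rose against OVX and 0 fell, where 24.2% of all tested genes rose and 15% fell. All 8 genes of the fibrillar class were among them, a class without the fibril chains of cartilage. With them were 5 of 7 tested basement membrane, 3 of 4 tested type VI, 4 of 5 tested FACIT, 2 of 6 tested cartilage genes and 2 of 5 tested others. The median log2 fold change was 2.36 over the tested collagens, 3.06 over the fibrillar class and 0.12 over all tested genes. The count was 19 to 25 with any 1 library left out, and 24 without Sham 3, P 2 and PJ 3.

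Under PJ 20 of the 35 tested collagens rose against OVX and 0 fell, where 29.8% of all tested genes rose and 14.6% fell. They were 6 of 8 fibrillar, 5 of 7 tested basement membrane, 3 of 4 tested type VI, 3 of 5 tested FACIT, 2 of 6 tested cartilage genes and 1 of 5 tested others. The median log2 fold change was 2.24 over the tested collagens and 0.22 over all tested genes. Markers of other cells moved in these comparisons. Under P and PJ 6 and 6 of 6 erythroid and 4 and 5 of 5 tested neutrophil markers fell. Rises were seen for 4 and 3 of 8 osteoblast, 4 and 5 of 6 osteoclast and 1 and 5 of 5 adipocyte markers. Of all tested genes 24.2% rose and 15% fell under P. The 1 of 5 adipocyte markers under P and the 3 of 8 osteoblast markers under PJ are near the shares of all tested genes. The part of these marker lists in the result was not tested. PJ 3 had the lowest collagen share of its group, and without PJ 3 the count was 29. It was 15 without PJ 1 and 15 without PJ 2.

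**Figure D3:**
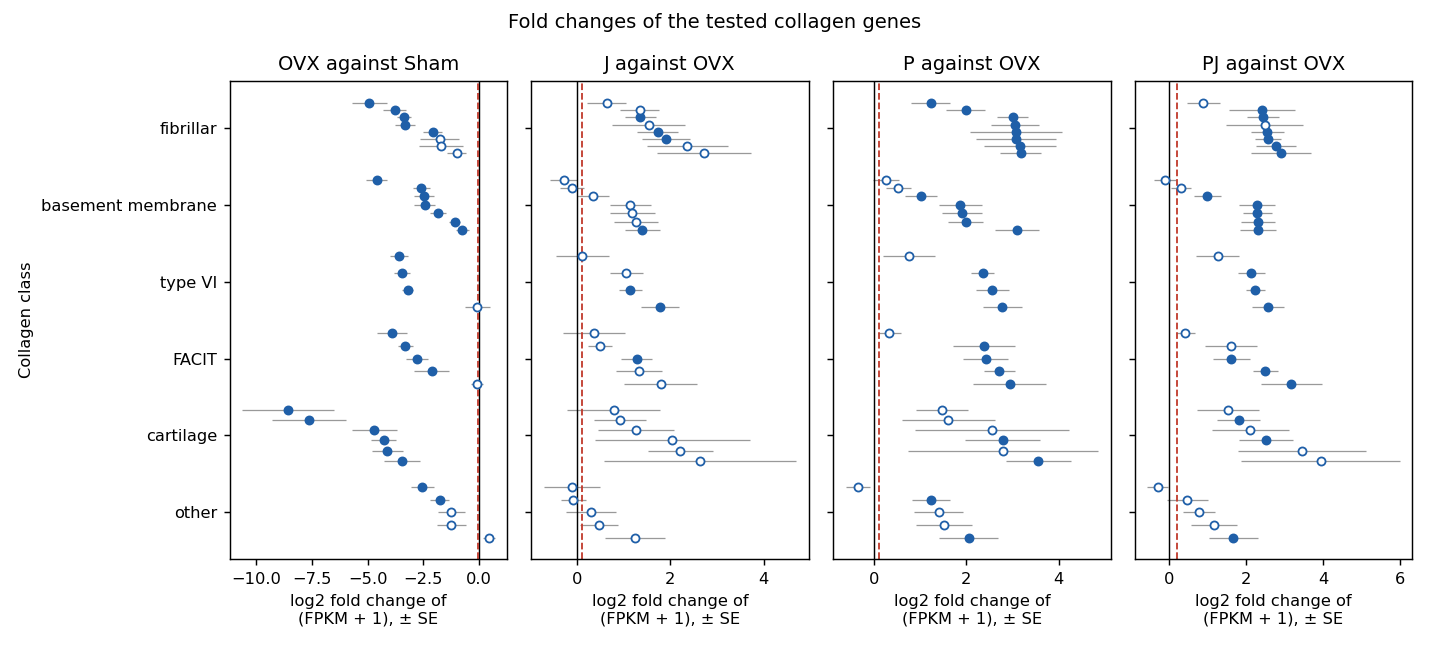
Log2 fold change of (FPKM + 1) with its standard error (horizontal axis) for the 35 tested collagens, by class (vertical axis), in 4 comparisons. Filled circles passed the adjusted p of 0.05, open circles did not, and the dashed line is the median of all 14416 tested genes, so that the classes lie left of the line in OVX against Sham and mostly right of it under P and PJ.

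Type I collagen was the most abundant collagen by mean FPKM over the 15 libraries, and it spread widely within groups. Col1a1 had 179.7, 118 and 448 FPKM in Sham 1, 2 and 3, 164, 45.6 and 35.3 in OVX, 572, 531 and 261 in J, 1763, 98.6 and 944 in P and 808, 481 and 126 in PJ. Col1a2 had 204, 149.8 and 525 FPKM in Sham 1, 2 and 3, 153, 56.1 and 45.7 in OVX, 508, 438 and 249 in J, 1657, 176 and 848 in P and 847, 606 and 119.8 in PJ. Sham and OVX overlapped for both chains, with OVX 1 near the level of Sham 1. P 1 was the highest library for both, and P 2 lay far below P 1 and P 3 and, for Col1a1, below OVX 1. OVX against Sham did not pass for Col1a1 (-1.70 ± 1.00, SE, adjusted p = 0.170, limma) or Col1a2 (-1.77 ± 0.87, adjusted p = 0.103, limma). Under P both rose, Col1a1 by 3.07 ± 1.00 (adjusted p = 0.0275, limma) and Col1a2 by 3.08 ± 0.87 (adjusted p = 0.0136, limma). The Col1a1 call was lost without OVX 2, OVX 3, P 1 or P 3, at 2.83, 2.65, 2.23 and 2.68, and that of Col1a2 without P 1, at 2.38. Under PJ Col1a2 passed at 2.41 ± 0.87 (adjusted p = 0.0379, limma) and Col1a1 did not at 2.49 ± 1.00 (adjusted p = 0.0592, limma), a difference between chains that was not tested. The Col1a2 call was lost without OVX 2, OVX 3, PJ 1 or PJ 2, at 2.22, 2.08, 1.86 and 2.10, and Col1a1 passed without PJ 3, at 3.26, without OVX 1, at 3.16, and in the fits without P 1 or P 2. Under J neither passed, Col1a1 at 2.72 ± 1.00 and Col1a2 at 2.36 ± 0.87, although every J library was above every OVX library for both, and Col1a1 passed in the fit without P 2.

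Col3a1, Col5a1 and Col5a2, chains of the type III and type V collagens that form fibrils in soft tissue and fix the width of type I fibrils, separated the groups more cleanly. Col3a1 had 272, 229 and 162 FPKM in Sham 1, 2 and 3, 8.91, 14.3 and 24.5 in OVX, 67.3, 45.4 and 64.0 in J, 117, 213 and 86.3 in P and 122, 219 and 45.2 in PJ. All OVX libraries were below all others, and the log2 fold change from Sham was -3.79 ± 0.51 (SE, adjusted p = 4.84e-05, limma). The rise against OVX was 1.91 ± 0.51 under J, 3.05 ± 0.51 under P and 2.78 ± 0.51 under PJ, and all 3 passed. The call under J was lost without any one of 11 libraries, all but OVX 3, P 2, PJ 2 and PJ 3. Col5a1 had a mean of 46.6 ± 15.2 FPKM in Sham, 3.48 ± 0.446 in OVX, 10.5 ± 1.39 in J, 34.7 ± 1.08 in P and 28.2 ± 13.8 in PJ (SD, n = 3 each). Its P libraries lay close together at 33.5, 35.1 and 35.6 FPKM, while PJ 3 at 12.5 was near the J level. Col5a2 fell from 118, 66.6 and 81.0 FPKM in Sham to 10.6, 6.01 and 7.02 in OVX and had 86.7, 82.9 and 64.3 in P. Its log2 fold changes were -3.33, 1.73, 3.17 and 2.55 in OVX against Sham and in J, P and PJ against OVX, and those of Col5a1 were -3.37, 1.36, 3.00 and 2.57. All 8 passed, but neither passed under J without any one of the OVX or J libraries, nor Col5a2 without P 1.

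The other fibrillar chains differed in how far they fell. Col27a1, a fibrillar collagen known from cartilage, had 93.0, 62.6 and 26.0 FPKM in Sham and 0.755, 0.611 and 1.02 in OVX, a log2 fold change of -4.93 ± 0.78 (adjusted p = 1.64e-04, limma). In P it had 6.89, 64.6 and 6.93, so that P 2 was at the Sham level and P 1 and P 3 were not. Col5a3, the third type V chain, fell less (-2.09 ± 0.42, adjusted p = 9.84e-04, limma). Col5a3 over Col5a1 was 0.650, 1.23 and 0.474 in Sham and 1.41, 1.95 and 2.84 in OVX, with no overlap, and it was highest in PJ 3, at 4.47. Col24a1 had 0.877, 1.19 and 2.82 FPKM in Sham and 0.554, 0.0772 and 0.139 in OVX, and its difference did not pass at -1.01 ± 0.42 (adjusted p = 0.0555, limma), although it did in the fits without Sham 1, PJ 1 or PJ 3. It rose under P by 1.23 ± 0.42, a call lost without OVX 2, OVX 3, P 1 or P 3. Of 6 tested markers of stromal fibroblasts, 3 fell in OVX, 1 rose under J, 4 under P and 4 under PJ. Of all tested genes 28.9% fell in OVX, and 3.27, 24.2 and 29.8% rose under J, P and PJ. With 6 genes the 3 that fell are not far from that share. Thy1 lay in the other direction, with every OVX library above every Sham library, and did not pass (0.56 ± 0.29, SE). The summed FPKM of the 6 stromal fibroblast markers was 2003 to 4131 in Sham, 269 to 505 in OVX and 1342 to 4393 in P. Dcn alone had 3846, 1452 and 1461 FPKM in Sham 1, 2 and 3 and 225, 3996 and 220 in P 1, 2 and 3. The highest sum in P was thus mostly Dcn in P 2. Lum and Cxcl12 overlapped between Sham and OVX. Of 7 joint surface and tendon markers, 7 fell in OVX and 5 rose under P. Tnmd was among the 7 and passed the filter only because of its level in Sham, so its low level in OVX was built in. The part of either list in the result was not tested.

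**Figure D4:**
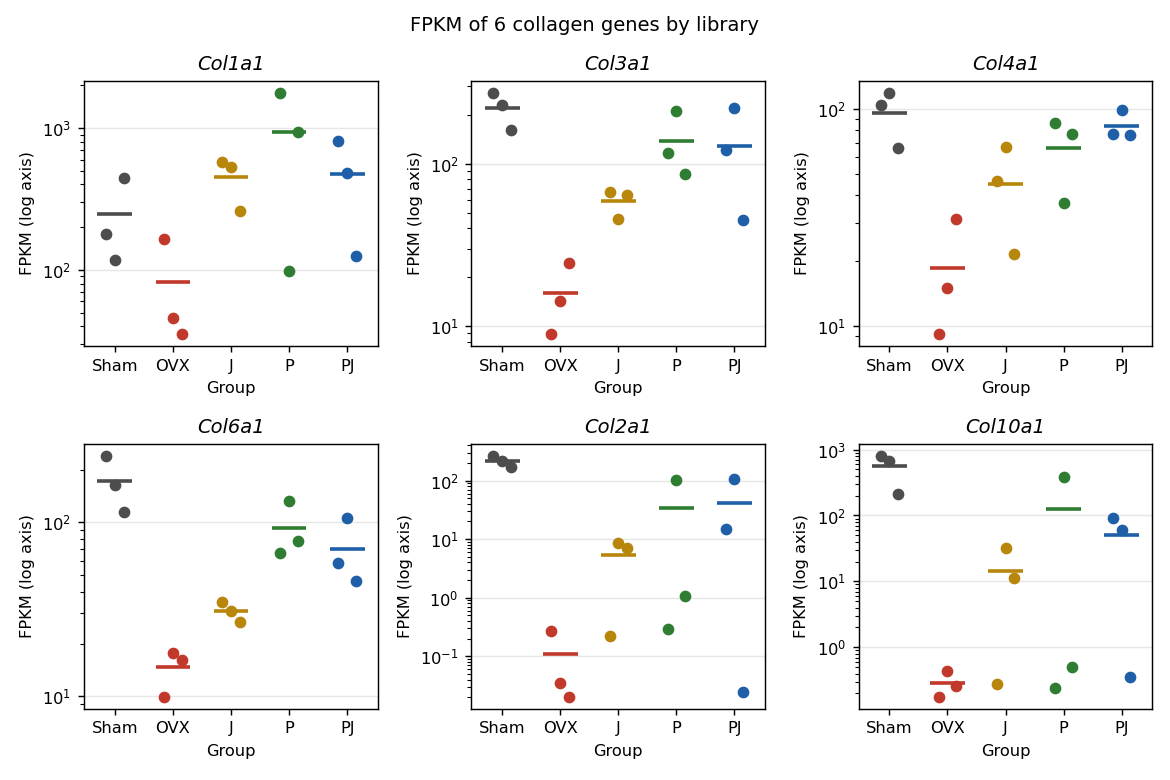
FPKM (vertical axes, log scale) of Col1a1, Col3a1, Col4a1, Col6a1, Col2a1 and Col10a1 in each library, by group (horizontal axes), with the group mean as a line. For Col3a1, Col4a1 and Col6a1 the OVX points lie below all Sham points, and for Col2a1 and Col10a1 the treated groups span several orders of magnitude, from 0.0250 FPKM in PJ 3 to 107 for Col2a1 and from 0.245 in P 1 to 378 for Col10a1.

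All 7 tested basement membrane collagens fell in OVX, and 5 of them rose under P and 5 under PJ. For Col4a3 the filter built in a low level in OVX, and without it 6 of 6 fell. Of all tested genes 28.9% fell in OVX, and 24.2 and 29.8% rose under P and PJ. The paired chains Col4a1 and Col4a2, which together build the common form of type IV collagen, are read in opposite directions from starts 76 bases apart in the RefSeq promoter table (assembly GRCr8), so that their promoter windows share the same bases. The stretch between both starts, chr16:84885521-84885596, is shown because the pair kept a nearly fixed ratio in these libraries. It is given 5′ to 3′ on the plus strand, on which Col4a1 lies, with CCGCCC, the reverse complement of the GC box GGGCGG, in capitals.
Col4a1-Col4a2 between starts: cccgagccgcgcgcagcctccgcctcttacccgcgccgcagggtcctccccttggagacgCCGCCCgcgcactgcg

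Col4a1 had 105, 118 and 65.9 FPKM in Sham 1, 2 and 3, 9.19, 15.1 and 31.0 in OVX, 46.8, 66.9 and 21.5 in J, 85.8, 36.9 and 76.3 in P and 76.7, 98.6 and 76.0 in PJ. Col4a2 had 72.0, 79.5 and 49.5 FPKM in Sham 1, 2 and 3, 5.79, 10.7 and 20.2 in OVX, 30.7, 38.3 and 13.5 in J, 54.8, 27.9 and 54.5 in P and 57.3, 72.9 and 46.6 in PJ. OVX 3 was the highest OVX library for both and exceeded J 3, so J and OVX overlapped, while P and PJ did not overlap OVX. Col4a2 over Col4a1 ran from 0.572 to 0.756 over all 15 libraries, a 1.32-fold range, while Col4a1 itself ranged 12.9-fold. The log2 fold change in OVX was -2.44 ± 0.47 for Col4a1 (adjusted p = 6.87e-04, limma) and -2.48 ± 0.44 for Col4a2 (adjusted p = 3.83e-04, limma). Under P they rose by 1.87 and 1.91, and under PJ by 2.28 and 2.31. Under J neither passed, at 1.27 and 1.14.

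The second head-to-head pair, Col4a3 and Col4a4, which are known from the basement membrane of the kidney filter, was expressed at a low level. Their starts lie 412 bases apart, and their windows share 88 bases at chr9:91323740-91323827, shown on the plus strand for comparison and holding neither GGGCGG nor CCAAT on either strand.
Col4a3-Col4a4 shared window: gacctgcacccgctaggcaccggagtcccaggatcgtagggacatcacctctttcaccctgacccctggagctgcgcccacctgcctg

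Col4a4 had 3.47, 3.15 and 1.94 FPKM in Sham and 1.07, 0.545 and 0.712 in OVX, and it fell by 1.11 on the log2 scale (adjusted p = 0.00313, limma). Col4a3 had 3.02, 2.46 and 1.08 FPKM in Sham and 0.760, 1.02 and 0.663 in OVX (-0.76 ± 0.29), where a value below Sham was built into its passing the filter, and its call was lost without any one of the OVX libraries or without J 1. Neither passed under J, P or PJ. Col4a4 over Col4a3 ran from 0.534 in OVX 2 to 2.23 in PJ 2, a 4.18-fold range. Col4a5 fell by 1.84 (adjusted p = 6.17e-04, limma) and rose by 1.02 under P and 1.00 under PJ. The P call was lost without OVX 1, OVX 2, P 2 or P 3 and the PJ call without OVX 1, OVX 2, PJ 1 or PJ 2. Col4a6, its neighbour with a start 1414 bases away, was too low to test, at 0.126 FPKM on average.

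Col15a1 and Col18a1, the collagens that carry heparan and chondroitin sulfate chains next to basement membranes, differed in size of change. Col15a1 had 62.1, 46.6 and 38.4 FPKM in Sham, 0.805, 1.59 and 0.806 in OVX, 2.48, 4.51 and 4.20 in J, 11.9, 35.0 and 10.3 in P and 16.1, 11.7 and 3.76 in PJ. Its log2 fold change in OVX was -4.59 ± 0.48 (adjusted p = 6.14e-06, limma), and it rose by 3.09 ± 0.48 under P and 2.31 ± 0.48 under PJ, where no treated library reached the lowest Sham level. Col18a1 had 23.4, 25.1 and 14.6 FPKM in Sham and 1.04, 2.95 and 4.53 in OVX (-2.60 ± 0.38, adjusted p = 8.49e-05, limma). It was the only member of the class to pass under J, at 1.40 ± 0.38 (adjusted p = 0.0474, limma), a call lost without any one of 10 libraries, among them OVX 1, OVX 2, J 1 and J 2. Of the endothelial markers 6 of 6 fell in OVX, 1 rose under J, 6 under P and 6 under PJ. Their summed FPKM was 298 to 519 in Sham, 45.0 to 68.1 in OVX, 105 to 143 in J, 208 to 248 in P and 156 to 349 in PJ. Smooth muscle markers fell too, 4 of 4, and 3 rose under P and 2 under PJ. Cnn1 among them passed the filter only because of its level in Sham, so its low level in OVX was built in. Of all tested genes 28.9% fell in OVX, and 3.27, 24.2 and 29.8% rose under J, P and PJ. The part of either list in the result was not tested.

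The 3 abundant type VI chains moved together. Col6a1 had 242, 165 and 114 FPKM in Sham 1, 2 and 3, 9.92, 17.8 and 16.2 in OVX, 35.0, 30.8 and 26.8 in J, 66.7, 133 and 78.1 in P and 58.7, 107 and 45.9 in PJ. Col6a2 had 140.3, 103 and 81.2 FPKM in Sham 1, 2 and 3, 7.76, 11.5 and 13.1 in OVX, 27.3, 23.3 and 23.2 in J, 49.1, 75.7 and 52.6 in P and 52.6, 68.5 and 42.9 in PJ. Col6a3 had 61.8, 44.6 and 52.5 FPKM in Sham, 2.54, 3.11 and 5.10 in OVX, 17.1, 7.40 and 22.6 in J, 26.7, 27.1 and 36.1 in P and 38.0, 33.3 and 12.8 in PJ. For each of these chains the OVX libraries were below all others, and J lay between OVX and Sham without overlap with either. The log2 fold changes in OVX were -3.45 ± 0.36, -3.21 ± 0.25 and -3.58 ± 0.41 for Col6a1, Col6a2 and Col6a3 (SE, largest adjusted p = 1.31e-05, limma). Under P they rose by 2.56, 2.36 and 2.78, and under PJ by 2.14, 2.24 and 2.57. Under J Col6a2 (1.15 ± 0.25, adjusted p = 0.0236, limma) and Col6a3 (1.78 ± 0.41, adjusted p = 0.0292, limma) passed and Col6a1 (1.06 ± 0.36, adjusted p = 0.0926, limma) did not. Both J calls were lost without OVX 1, OVX 2, J 1 or J 3, at 0.95 to 1.20 for Col6a2 and 1.47 to 1.72 for Col6a3. Col6a2 over Col6a1 ran from 0.569 to 0.934, a 1.64-fold range, and Col6a3 over Col6a1 from 0.175 in OVX 2 to 0.843 in J 3.

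The alternative type VI chains had low levels and differed from each other. Col6a5 had 0.648, 2.93 and 2.95 FPKM in Sham and 0.592, 2.30 and 3.11 in OVX, and no comparison with OVX or of OVX with Sham passed for it, although its 3 PJ libraries were above its OVX libraries and it passed under P and PJ in the fit without P 2. Col6a6, too low to test, had 0.265, 0.413 and 0.147 FPKM in Sham and 0.0652, 0.0702 and 0.0301 in OVX, and its OVX libraries were below those of Sham, P and PJ. Col6a5 over Col6a1 was 0.00268, 0.0178 and 0.0259 in Sham and 0.0597, 0.130 and 0.192 in OVX, with no overlap. Col6a4, just below the filter with a mean of 0.905 FPKM, had 0.0237, 0.142 and 0.219 in Sham and 1.06, 0.825 and 0.866 in OVX, so that every OVX library was above every Sham library. It was the only collagen of the 44 whose OVX libraries were all higher than its Sham libraries, and it was singled out after its values were seen. Col17a1, the lowest gene above the filter at 1.08 FPKM, a transmembrane collagen of epithelia, had the only positive fold change of the tested collagens in OVX, 0.43 ± 0.27, which did not pass (adjusted p = 0.196, limma).

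Of the FACIT genes 4 of 5 tested fell in OVX, and they were high in different libraries. Col16a1 had 39.7, 36.6 and 33.2 FPKM in Sham 1, 2 and 3, 1.46, 3.20 and 4.23 in OVX, 8.43, 5.91 and 10.9 in J, 16.7, 36.0 and 22.3 in P and 20.1, 28.1 and 14.9 in PJ. Col12a1 had 5.43, 4.11 and 25.6 FPKM in Sham 1, 2 and 3, 0.917, 1.29 and 1.39 in OVX, 5.24, 3.81 and 13.4 in J, 24.8, 4.92 and 29.8 in P and 33.1, 31.6 and 5.98 in PJ. Col14a1 had 16.3, 26.8 and 13.6 FPKM in Sham 1, 2 and 3, 0.104, 0.397 and 0.351 in OVX, 0.435, 1.04 and 0.520 in J, 1.46, 16.5 and 5.83 in P and 8.59, 3.26 and 0.468 in PJ. Col16a1 separated OVX from every other group and was even within Sham. Col12a1 was highest in Sham 3, P 1, P 3, PJ 1 and PJ 2, and Col14a1 was highest in the 3 Sham libraries and P 2. The log2 fold changes in OVX were -3.31 ± 0.33 for Col16a1 (adjusted p = 4.32e-06, limma), -3.91 ± 0.67 for Col14a1 (adjusted p = 3.11e-04, limma) and -2.13 ± 0.78 for Col12a1 (adjusted p = 0.0356, limma). The Col12a1 call was lost without Sham 3, at -1.39, and without any one of the OVX libraries. Col12a1 over Col14a1 was 0.332, 0.153 and 1.88 in Sham, 8.78, 3.26 and 3.95 in OVX and 0.298 in P 2, where P 1 and P 3 had 17.0 and 5.11.

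Under P Col16a1, Col12a1 and Col14a1 rose by 2.71 ± 0.33, 2.94 ± 0.78 and 2.38 ± 0.67 (SE), and the Col14a1 call was lost without P 2, at 1.68. Under PJ Col16a1 and Col12a1 rose by 2.50 ± 0.33 and 3.18 ± 0.78, and Col14a1 did not pass at 1.62 ± 0.67 (adjusted p = 0.0678, limma). It passed without PJ 3, at 2.32, and in the fits without P 1 or P 2. Under J Col16a1 alone passed, at 1.28 ± 0.33 (adjusted p = 0.0397, limma), and it did not pass without any one of 8 libraries, among them OVX 1, OVX 2, J 1 and J 3. Col22a1, known from junctions of muscle and tendon, fell in OVX by 2.78 (adjusted p = 3.85e-04, limma) and rose by 2.42 under P and 1.62 under PJ, the latter call being lost without OVX 2, OVX 3, PJ 1 or PJ 2. Skeletal muscle markers, 6 tested, had their highest mean log2(FPKM + 1) in P 2, at 4.84, against 4.52 in Sham 1. Acta1, Ckm, Myh2 and Tnnt3 were highest in P 2. Myh4 and Actn3 were not, at 1.96 and 1.35 FPKM in P 2 against 14.0 and 23.6 in Sham 1. In OVX 1 of the 6 markers fell, a share below the 28.9% of all tested genes. Myh2 passed the filter only because of its level in P, so a high level there was built in. The part of these markers in the result was not tested. Col20a1 passed in none of these comparisons, and Col19a1 was too low to test.

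The cartilage collagens had the largest falls in OVX of all classes by their median, and the most uneven values under treatment. Col10a1, the collagen of enlarging growth plate chondrocytes, and Col2a1, the main fibril of cartilage, lead the class. Col10a1 had 805, 669 and 209 FPKM in Sham 1, 2 and 3, 0.178, 0.434 and 0.260 in OVX, 0.279, 31.7 and 11.4 in J, 0.245, 378 and 0.509 in P and 91.7, 59.5 and 0.349 in PJ. Col2a1 had 264, 217 and 173 FPKM in Sham 1, 2 and 3, 0.270, 0.0345 and 0.0205 in OVX, 0.222, 8.68 and 6.95 in J, 0.295, 102 and 1.08 in P and 14.7, 107 and 0.0250 in PJ. Both were high in all Sham libraries and near 0 in all OVX libraries, and within J, P and PJ they ranged from the OVX level (J 1, P 1 and PJ 3) to 378 FPKM of Col10a1 in P 2, inside the Sham range, and 107 FPKM of Col2a1 in PJ 2, below it. The log2 fold change in OVX was -8.55 ± 2.06 for Col10a1 (adjusted p = 0.00339, limma) and -7.61 ± 1.66 for Col2a1 (adjusted p = 0.00179, limma). Under P neither passed, at 2.80 ± 2.06 and 2.57 ± 1.66, nor under PJ, at 3.93 ± 2.06 and 3.45 ± 1.66. Without PJ 3 both passed under PJ, at 5.86 and 5.22, and in the fit without P 2 both also passed, at 3.93 and 3.45.

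The other chains of cartilage fibrils were less extreme. Col11a2 had 104, 74.8 and 63.8 FPKM in Sham, 10.6, 1.40 and 2.63 in OVX, 31.9, 15.7 and 17.4 in J, 67.7, 74.8 and 30.4 in P and 57.1, 40.0 and 7.01 in PJ, and Col11a1 had 49.3, 19.7 and 22.3 in Sham, 6.16, 0.883 and 0.403 in OVX and 16.3, 26.5 and 12.1 in P. These type XI chains were present in P 1 and P 3, where Col2a1 had 0.295 and 1.08 FPKM. They were the 2 cartilage genes that rose under P, Col11a2 by 3.55 ± 0.70 (adjusted p = 0.00180, limma) and Col11a1 by 2.79 ± 0.81 (adjusted p = 0.0156, limma), the second not without OVX 2 or OVX 3. Under PJ Col11a2 (2.52 ± 0.70) and Col9a2 (1.81 ± 0.56) passed. The Col11a2 call was lost without OVX 2 or PJ 1 and the Col9a2 call without OVX 1 or PJ 2. Col9a2 and Col9a3, FACIT chains on type II fibrils, had 39.3, 35.2 and 18.8 and 35.8, 33.5 and 17.0 FPKM in Sham and 0.363, 0.637 and 0.750 and 0.0951, 0.0994 and 0.0753 in OVX. Col9a3 over Col9a2 was 0.911, 0.951 and 0.908 in Sham and 0.262, 0.156 and 0.10 in OVX, and 1.91 and 1.79 in P 2 and PJ 2. Of 7 tested chondrocyte markers outside the collagens, 7 fell in OVX, 0 rose under J, 3 under P and 3 under PJ. Of all tested genes 28.9% fell in OVX, and 3.27, 24.2 and 29.8% rose under J, P and PJ. With 7 genes the 3 that rose under P and under PJ are not far from these shares. The mean log2(FPKM + 1) of all 10 listed markers was 4.92 in P 2 against 1.45 and 1.81 in P 1 and P 3, and 3.62, 4.06 and 0.48 in PJ 1, 2 and 3. Matn3, one of those too low to test, was not high in P 2, at 0.169 FPKM against 1.83 and 1.13 in P 1 and P 3. Their part in the result was not tested.

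The stretches before the starts of Col10a1 and Col1a2 are shown because these are the highest members of the cartilage and the fibrillar class by mean FPKM, and they were high in different libraries. They come from the RefSeq promoter table (GRCr8). The first is chr20:39737286-39737535, the 250 bases before the start, and the second chr4:33518307-33518406, the first 100 of the 250 bases before the start, both on the plus strand. Capitals mark the letters CCAAT or, on the other strand, ATTGG, and TATAAA.
Col10a1 upstream: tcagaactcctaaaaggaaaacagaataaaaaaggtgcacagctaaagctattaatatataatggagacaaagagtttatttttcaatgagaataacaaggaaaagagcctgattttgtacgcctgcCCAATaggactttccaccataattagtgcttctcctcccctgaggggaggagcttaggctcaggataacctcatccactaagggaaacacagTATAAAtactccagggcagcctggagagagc
Col1a2 upstream: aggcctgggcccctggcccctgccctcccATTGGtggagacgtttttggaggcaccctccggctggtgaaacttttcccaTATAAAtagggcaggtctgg
Of the 44 collagens 35 had a 300-base window in that table, 250 before and 50 after the start. On either strand CCAAT stood in 11 of them (31.4%, against 37.7% of all 27457 windows), TATAAA in 4 (11.4% against 14.3%), GGGCGG in 19 (54.3% against 34.9%) and TGTGGT, a core read by Runx factors, in 3 (8.57% against 17.0%). The 4 with TATAAA were Col1a2, Col10a1, Col13a1 and Col17a1. These are matches of letters and not sites.

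Of the 8 remaining collagens 5 were tested. Col13a1 had 5.70, 3.04 and 21.6 FPKM in Sham 1, 2 and 3, 3.38, 2.04 and 2.46 in OVX, 7.86, 5.56 and 9.56 in J, 22.7, 6.71 and 17.2 in P and 18.3, 15.2 and 3.69 in PJ. Col8a2 had 18.3, 10.4 and 20.5 FPKM in Sham 1, 2 and 3, 3.36, 4.13 and 4.28 in OVX, 6.92, 3.12 and 8.55 in J, 8.17, 15.0 and 9.69 in P and 10.1, 11.3 and 3.33 in PJ. Col13a1, a transmembrane collagen, was highest in the same 5 libraries as Col12a1 and did not pass in OVX against Sham (-1.24 ± 0.64, adjusted p = 0.118, limma), except without Sham 2, at -1.78. It rose by 2.06 ± 0.64 under P and 1.66 ± 0.64 under PJ. The P call was lost without OVX 2, OVX 3, P 1 or P 3, and the PJ call without any one of 11 libraries, all but Sham 2, Sham 3, P 2 and PJ 3. Col8a2, of the short-chain collagens, fell by 1.77 (adjusted p = 0.00260, limma) and rose under P by 1.24 ± 0.41, a call lost without any one of the OVX libraries, P 2 or P 3. Col28a1, known from nerve sheaths, had 6.69, 9.62 and 2.08 FPKM in Sham and 0.0341, 0.183 and 0.0337 in OVX, a log2 fold change of -2.54, where a value below Sham was built into its passing the filter. Col8a1 passed in none of the 4 comparisons (log2 fold changes -1.25, -0.10, 1.52 and 1.16). Without OVX 2 Col8a1 passed in OVX against Sham and under P and PJ, without P 3 in OVX against Sham and under PJ, and without P 1 or P 2 under P.

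Ratios of chains within a library separate composition from amount. Col4a2 over Col4a1 and Col6a2 over Col6a1 varied 1.32-fold and 1.64-fold over the 15 libraries. Col1a2 over Col1a1 varied 2.16-fold, from 0.826 in J 2 to 1.78 in P 2, while Col1a1 itself varied 49.9-fold. Col3a1 over Col1a1 was 1.52, 1.94 and 0.362 in Sham, 0.0544, 0.314 and 0.693 in OVX, 0.118, 0.0855 and 0.245 in J, 0.0664, 2.16 and 0.0915 in P and 0.151, 0.455 and 0.360 in PJ. The highest values were in Sham 1, Sham 2 and P 2, and no treated group as a whole reached the level of Sham 1 and Sham 2. These ratios are given as a description, without a test.

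**Figure D5:**
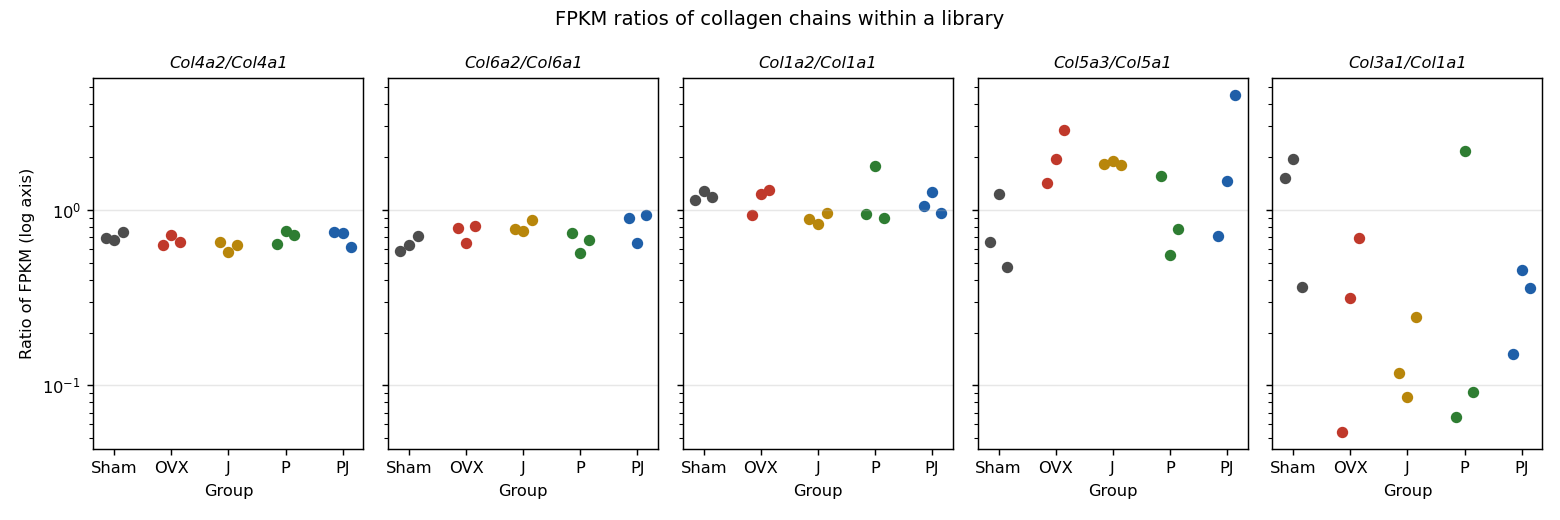
FPKM of one collagen chain divided by that of another in the same library (vertical axis, log scale) by group (horizontal axis), 1 point per library. Col4a2/Col4a1 stays within 0.572 to 0.756, while Col3a1/Col1a1 spreads from 0.0544 to 2.16.

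The treated groups were also compared with each other. In P against J 5 of the 35 tested collagens were higher and 0 lower, where 4.37% of all tested genes were higher and 3.05% lower: Col5a1 (1.64 ± 0.33, SE), Col6a1 (1.50 ± 0.36), Col6a2 (1.21 ± 0.25), Col15a1 (1.91 ± 0.48) and Col16a1 (1.43 ± 0.33). All 3 P libraries were above all 3 J libraries for each of these 5. The calls were not stable: the count was 0 without Sham 2, OVX 2, J 1, J 2, J 3, P 1 or P 3 singly, 2 without P 2, 8 without PJ 3 and 11 without Sham 3, P 2 and PJ 3. In PJ against J 3 were higher and 0 lower, where 8.38% of all tested genes were higher and 5.88% lower: Col5a1 (1.21 ± 0.33), Col6a2 (1.10 ± 0.25) and Col16a1 (1.22 ± 0.33). That share of the tested collagens is close to the share of all tested genes. The count was 0 without PJ 1 or PJ 2, 1 without J 1 or J 2 and 10 without PJ 3. In PJ against P no collagen passed in limma, as for 0 of all 14416 tested genes, and 0 of 35 had an unadjusted p under 0.05, against 2.05% of all tested genes. The log2 fold changes ran from -1.26 (Col11a1) to 1.14 (Col10a1), with -0.58 ± 1.00 for Col1a1, -0.27 ± 0.51 for Col3a1, 0.41 ± 0.47 for Col4a1 and -0.42 ± 0.36 for Col6a1 (SE). PJ was given more extract in total than J or P.

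Genes that make and handle collagen were counted from lists, to be read against the 28.9% of all tested genes that fell and 25.3% that rose in OVX. Against OVX, 3.27% of all tested genes rose under J, 24.2% under P and 29.8% under PJ. The shares that fell were 2.79, 15 and 14.6% in the same order. Of 19 genes for folding and modifying the chains, 15 fell in OVX and 0 rose, and 6 rose under J, 12 under P and 14 under PJ, with 0 falling. Crtap, part of the prolyl 3-hydroxylase complex, had 66.6, 63.9 and 60.1 FPKM in Sham, 8.47, 9.71 and 11.0 in OVX, 18.6, 17.4 and 21.3 in J, 37.2, 39.8 and 36.9 in P and 39.8, 41.6 and 26.0 in PJ. Its groups were narrow, and OVX, J and Sham did not overlap. Its log2 fold changes were -2.59 ± 0.16 in OVX against Sham and 0.91 ± 0.16, 1.87 ± 0.16 and 1.76 ± 0.16 under J, P and PJ. Fkbp10, a prolyl isomerase for procollagen, had -3.23, 1.23, 2.60 and 2.23 in the same order, and Serpinh1, the collagen chaperone HSP47, had -2.52, 1.48, 2.26 and 2.30, and all of these passed. The median log2 fold change of the list in OVX was -2.12, against -0.04 for all tested genes.

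All 5 lysyl oxidases, which cross-link collagen, fell in OVX, 0 passed under J, 5 rose under P and 4 under PJ. Lox had 97.4, 26.2 and 26.3 FPKM in Sham, 0.276, 0.773 and 0.327 in OVX and 13.5, 58.0 and 7.56 in P, so P 2 again stood with Sham, and it changed by -4.86 ± 0.85 in OVX and 3.75 ± 0.85 under P. Of 6 tested genes for cutting the propeptides, 5 fell in OVX and Adamts3 rose (1.74 ± 0.30). Tll1 was among the 5 and passed the filter only because of its level in Sham, so its low level in OVX was built in. Under P 5 rose and Adamts3 fell (-0.88 ± 0.30), and under J only Pcolce, the enhancer of C-propeptide removal, rose (1.56 ± 0.26). Of 7 genes for export of large cargo from the endoplasmic reticulum, 4 fell in OVX, among them Sec24d (-1.72 ± 0.33), and 2 rose, Klhl12 (0.82 ± 0.16) and Trappc2 (0.46 ± 0.17), a share of rises near that of all tested genes. The list medians in OVX were -3.09, -1.97 and -0.80 for cross-linking, propeptides and export, with Tll1 included in the second.

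Of 9 tested collagen receptors 5 fell in OVX, such as the receptor kinase Ddr2 (-2.71 ± 0.30) and the chondrocyte integrin Itga10 (-5.27 ± 0.76), and 1 rose, the platelet receptor Gp6, with 0, 1.03 and 0.619 FPKM in Sham and 49.2, 32.6 and 33.3 in OVX (4.70 ± 0.33). Under J Gp6 fell and 0 rose, under P 4 rose and Gp6 fell, and under PJ 5 rose and Gp6 fell. Of 7 collagen-degrading proteases 3 fell in OVX, Mmp2 (-3.97 ± 0.53), Mmp14 (-2.61 ± 0.53) and Fap (-3.73 ± 0.45), and the neutrophil collagenase Mmp8 rose (4.93 ± 0.35). With 7 genes such counts are not far from the shares of all tested genes. The list medians were -0.85 for receptors and -1.60 for proteases. Under P and under PJ 5 rose, Mmp2, Mmp14, Fap, Mmp13 and the osteoclast protease Ctsk, and Mmp8 fell. Under J Mmp2 alone passed, at 2.22 ± 0.53. Osteoclast markers, Ctsk among them, were also uneven in Sham, with a mean log2(FPKM + 1) of 5.76 in Sham 3 against 1.93 and 1.85 in Sham 1 and 2. Their part in the result was not tested.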

How the data were processed

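Polyadenylated femur RNA was sequenced in 15 libraries, 3 in each of 5 groups that the titles and treatment labels give. Named in the submitters' processing notes are featureCounts 2.0.6, STAR 2.7.11a and fastp 0.23.4, with the genome build mRatBN7.2. The authors deposited 1 file per library with FPKM for 30454 genes, in a column whose header calls it a count. That these values are FPKM follows from the values, which scale with gene length and hold fractions. Library totals were inferred from the steps between low FPKM values. If both ends of a pair were counted, they are 17.2 to 30.5 in units of 1000000 fragments and not 34.4 to 61.0 in units of 1000000 reads. A value of 0 allows up to 3 reads, for counting error only.

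Values were analysed as log2(FPKM + 1) for the 14416 genes with a mean of at least 1 FPKM. A linear model over all 15 libraries, with 10 residual degrees of freedom, was fitted in R 4.3.3 (limma 3.58.1, variances following mean expression) and tested two-sided with Benjamini-Hochberg adjustment over all tested genes and a threshold of 0.05. The procedure was tested on simulated data. SE comes from the fit and SD is over 3 libraries.

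The collagen genes, their classes, the 18 lists of companion genes and cell type markers and the libraries singled out were chosen with earlier results of these data known. Classes and lists held 175 genes, of which 4 were not matched by name. Values in every library are given for Col1a1, Col1a2, Col3a1, Col2a1, Col10a1, Col4a1, Col4a2, Col6a1, Col6a2, Col6a3, Col12a1, Col14a1 and the 2 members of each class with the highest mean. Fold changes are given for these and for up to 4 further members of a class with the smallest p, and up to 4 genes of a companion list are named by smallest p. Other collagens are named to show the range of a class. Marker lists that are not described beside a result gave these counts in OVX against Sham: 6 of 6 erythroid, 5 of 5 tested neutrophil and 4 of 5 B cell markers rose, 0 of 5 adipocyte and 0 of 6 osteoclast markers passed, and 1 of 8 osteoblast markers fell. Of all tested genes 25.3% rose and 28.9% fell in that comparison. Under J 0 markers of these 6 lists passed, and under P and PJ 0 of the B cell markers did. Other settings tried were no filter or a mean of at least 5 FPKM, a pseudocount of 0.1, rescaling to TPM, median-ratio scaling, only the groups compared, array weights, the replicate number as a block and each library left out. Promoter sequences are from RefSeq (GRCr8), matched by symbol.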

Additional observations from a re-analysis of the deposited data

How the results depend on the processing

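The count of collagens lower in OVX stayed at 25 to 28 with any 1 library left out and the count higher under P at 19 to 25, against 27 and 24, and leaving out Sham 3, P 2 and PJ 3 together gave 28 and 24. The count higher under PJ was 15 to 29 with any 1 library left out, 30 without those 3 libraries and 31 with array weights, against 20. The count higher under J, 7, was the least stable of these: it was 0 to 9 with any 1 library left out, 1 with no filter, 2 with TPM, 14 in a fit of J and OVX only, 17 without the 3 libraries and 19 with array weights. In P against J the count higher, 5, was 0 with no filter, 0 with TPM and 0 in a fit of those groups only, 9 with array weights, 11 without the 3 libraries and 0 to 8 with any 1 library left out. In PJ against J the count higher, 3, was 1 with no filter, 1 with median-ratio scaling, 24 with array weights, 18 without the 3 libraries and 0 to 10 with any 1 library left out. The count higher in OVX, 0, was 1 with no filter and 1 with TPM (Col6a4) and 1 with array weights (Col17a1), and the count lower in PJ against J, 0, was 1 with array weights (Col17a1). The cause of these changes was not tested.

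Fold changes that changed sign were all of genes that had not passed. With any 1 library left out, Col6a5 ran from -0.50 to 0.32 in OVX against Sham (0.13 without the 3 libraries) and from -0.28 to 0.42 under J. Under J the same range was -0.29 to 0.16 for Col17a1 (0.13 with array weights), -0.20 to 0.013 for Col4a4 and -0.58 to 0.47 for Col8a1 (0.036 with a pseudocount of 0.1), and under PJ it was -0.30 to 0.10 for Col4a3 (0.18 with array weights and 0.10 without the 3 libraries). The cause was not tested. Of 3497 values of single genes under the alternatives, 3150 kept their direction and side of the threshold, 217 lost it, 114 gained it and 16 changed sign.

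Same-numbered libraries had correlations of their deviations from the group means of -0.286 to 0.224, not above 0.1 in every pair of any comparison. With 3 libraries a group such correlations cannot exclude that the replicate numbers mark a pairing. With the replicate number as a block, 27 collagens were lower in OVX, and 6, 26 and 20 were higher under J, P and PJ, 6 in P against J, 4 in PJ against J and 0 in PJ against P. With median-ratio scaling the log2 fold changes of genes tested in both fits moved by a median of -0.11 under J, -0.17 under P and -0.26 under PJ. With TPM the median move was -0.10 in OVX and 0.12 under PJ. The tested collagens under P and PJ still had 0 called lower with either scaling. Of all tested genes 420 were then higher and 949 lower under J with median-ratio scaling, against 471 and 402, 2790 and 3390 under P, against 3486 and 2160, and 2992 and 3575 under PJ, against 4298 and 2103. With 3 libraries a group, their number and the spread between them limit the precision.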
